A study of Mus musculus with 8 samples.

Results

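The genes described here are 30 zinc-finger paralogs of the mouse genome, 22 in a block of distal chromosome 4 and 8 in a block of distal chromosome 2, out of 34369 gene symbols measured. They were chosen by name, and the names were picked with their difference between mutator and wild-type cells already known, so that difference is given below as a description, and its calls in the fit over all genes support nothing. RNA-seq was done on iPS (induced pluripotent stem) cells of the mouse, somatic cells reprogrammed to a state like that of embryonic stem cells. Of the 8 libraries, 5 came from mutator lines that carry POLG D257A on both alleles, and 3 from wild-type lines made from littermate embryos. POLG copies mitochondrial DNA, and D257A removes its proofreading, so that this DNA collects mutations. Both groups were kept on growth-arrested feeder cells with LIF, a cytokine that holds mouse stem cells in the naive state, and went through 1 passage on gelatin to deplete the feeders before total RNA was taken.

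Zinc-finger proteins of this kind bind DNA through an array of fingers, and most of the long arrays in mammals sit behind a KRAB domain. KRAB recruits the corepressor TRIM28, which brings in the histone methyltransferase SETDB1, heterochromatin protein 1 and DNA methylation, and in embryonic stem cells this machinery silences endogenous retroviruses and other transposable elements. The genes multiply by tandem duplication, so that neighbours in a block are often near copies of each other, and many mouse clusters have no counterpart in other orders of mammals.

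Values are FPKM, in which fragment numbers are divided by transcript length and by the mapped fragments of the library, and a log2 change is mutator minus wild type on log2(FPKM + 1), which understates the change of low genes. The depth of the libraries is not in the table. Between 11198 and 11899 genes reached 1 FPKM in a library. Mutator replicates 1 and 2 were closer to each other than any other pair within a group: over genes averaging 10 FPKM or more the median absolute log2 ratio was 0.0548 between them and 0.142 to 0.439 in the 12 other pairs, and their column headers share a code, although the design text calls the 5 lines independent. They were therefore counted as 1 sample, which gives 4 mutator against 3 wild-type samples. Wild-type columns also carry 1 common number in their headers, so the 3 lines may stem from 1 embryo, and embryo and genotype then cannot be told apart. Where nothing shows separate cultures, p-values measure only the spread between these samples.

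On chromosome 4 the 22 genes lie between 145510759 and 147809788 (GRCm38, GENCODE M21), a span of 2299 kb, 18 on the plus strand and 4 on the minus strand. The annotation gives 20 as protein-coding and 2 as pseudogenes, 1700029I01Rik and Gm13147. In order along the chromosome they are Gm13225, Gm13212, Gm13242, 1700029I01Rik, Gm13235, Gm13051, Zfp600, Gm13251, Gm13247, Gm13248, Gm8935, Gm13150, Rex2, Gm13139, Gm13147, Gm13151, Gm13145, Gm13152, Gm13154, 2610305D13Rik, Zfp534 and Gm13157. On chromosome 2 the 8 genes lie between 177074320 and 178078476, a span of 1004 kb, with 3 on the plus and 5 on the minus strand. They are Gm14401, Gm14411, Gm14409, Gm14412, Gm14403, Gm14406, Etohi1 and Zfp931, of which Gm14411 is annotated as a pseudogene. Many of the deposited names have since been replaced: 2610305D13Rik is Zfp979, Gm13247 is Zfp981, Gm13145 is Zfp978 and Etohi1 is Zfp971. The gene ID deposited under the name Gm8935 is that of Gm21411 in GENCODE M21, and its position here is taken from the ID.

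Starts of the genes show how alike the members of each block are. RefSeq promoters on GRCm38.p6, read as the 250 bases before the annotated start, were found for 13 of the 22 chromosome 4 genes (16 promoters) and for 3 of the 8 chromosome 2 genes (3 promoters). The longest word common to the chromosome 4 set, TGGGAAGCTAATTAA, was searched on both strands. It was present in 12 of the 16 promoters, in 12 of the 13 genes, in 0 of the 3 chromosome 2 promoters and in 12 of all 32851 promoters of the table (0.0365%). The RefSeq promoter listed for Gm13248 lacks it, but that promoter lies within the GENCODE span of Gm13247, outside the GENCODE span of Gm13248. Where present, the word begins 106 to 164 bases before the start. The 4 promoters printed first are those of the gene with the lowest log2 change (Gm13247), the most abundant gene (2610305D13Rik), a near-identical copy of another member (Zfp600) and the word-bearing gene with the smallest difference (Gm13157). The last pair are from chromosome 2. The RefSeq start of Gm13247 lies inside its GENCODE span. Each promoter runs 5′ to 3′ on the strand of its gene, and capitals mark the word common to its block.
Gm13247, chr4:146514670-146514919 (plus strand): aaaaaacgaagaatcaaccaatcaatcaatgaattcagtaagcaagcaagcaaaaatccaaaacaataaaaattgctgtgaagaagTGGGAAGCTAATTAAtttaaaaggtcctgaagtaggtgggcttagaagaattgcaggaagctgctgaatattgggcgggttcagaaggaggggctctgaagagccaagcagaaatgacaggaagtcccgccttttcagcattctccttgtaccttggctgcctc
2610305D13Rik, chr4:147642509-147642758 (minus strand): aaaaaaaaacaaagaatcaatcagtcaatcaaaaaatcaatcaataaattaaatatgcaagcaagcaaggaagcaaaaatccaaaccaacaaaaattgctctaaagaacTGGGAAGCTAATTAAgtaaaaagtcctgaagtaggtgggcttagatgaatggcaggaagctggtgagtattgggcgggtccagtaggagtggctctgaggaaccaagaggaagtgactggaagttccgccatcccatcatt
Zfp600, chr4:146156577-146156826 (plus strand): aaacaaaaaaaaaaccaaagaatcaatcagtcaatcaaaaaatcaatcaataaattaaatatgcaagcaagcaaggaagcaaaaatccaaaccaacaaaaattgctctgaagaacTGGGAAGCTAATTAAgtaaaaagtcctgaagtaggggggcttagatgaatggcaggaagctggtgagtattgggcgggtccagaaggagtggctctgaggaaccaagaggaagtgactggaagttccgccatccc
Gm13157, chr4:147809789-147810038 (minus strand): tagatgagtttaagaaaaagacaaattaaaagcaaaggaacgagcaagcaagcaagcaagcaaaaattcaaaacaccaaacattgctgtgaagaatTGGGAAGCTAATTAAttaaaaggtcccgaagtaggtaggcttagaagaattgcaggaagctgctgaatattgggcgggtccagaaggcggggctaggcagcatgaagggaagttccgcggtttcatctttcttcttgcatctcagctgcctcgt
Etohi1, chr2:178023034-178023283 (plus strand): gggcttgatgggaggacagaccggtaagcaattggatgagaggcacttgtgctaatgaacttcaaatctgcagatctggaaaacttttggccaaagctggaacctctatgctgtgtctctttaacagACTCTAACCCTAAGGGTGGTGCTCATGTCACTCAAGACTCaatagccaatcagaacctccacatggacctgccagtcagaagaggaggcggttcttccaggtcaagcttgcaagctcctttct
Zfp931, chr2:178078426-178078675 (minus strand): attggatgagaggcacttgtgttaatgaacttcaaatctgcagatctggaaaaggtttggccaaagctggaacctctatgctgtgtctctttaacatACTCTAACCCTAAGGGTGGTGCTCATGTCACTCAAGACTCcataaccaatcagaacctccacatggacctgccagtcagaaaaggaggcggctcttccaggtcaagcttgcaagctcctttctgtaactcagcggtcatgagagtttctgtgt

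The chromosome 4 promoters with the word were 69.2% to 99.6% identical to each other over 66 pairs (median 79.6%), and Zfp600 and Rex2 made the pair at 99.6%. The 3 chromosome 2 promoters were 84.8% to 92.0% identical, and share the 40-base run in capitals, which begins 123 to 153 bases before the start. That run was in 0 of the 16 chromosome 4 promoters and in 30 of 32851 overall (0.0913%). The other 27 promoters that hold it all lie on chromosome 2, in 24 genes. Between the blocks identity was 54.4% to 62.0% over 36 pairs, with a median of 58.8%. The CCAAT box was in 13 of 16 and 3 of 3 against 33.8% of all promoters, and the GC box GGGCGG in 11 of 16 and 0 of 3 against 32.7%. TAATTA, which is part of the chromosome 4 word, was in 12 of 16 and 0 of 3 against 4.84%. The promoters with these words held few CpG sites, 1 to 7 on chromosome 4 and 2 to 3 on chromosome 2 (median 2 in each block), where the median over all promoters was 6. An inverted CCAAT box followed directly by GCGGG was in 10 of 16 and 0 of 3 against 0.11%. Such matches describe these letters and are not evidence of a bound factor.

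The chromosome 4 genes as a group had 146.3, 147.9, 147.7, 205.8 and 170.9 summed FPKM in mutator replicates 1 to 5, against 474, 464.3 and 463.4 summed FPKM in wild-type replicates 1 to 3. All mutator libraries lay below all wild-type libraries, and mutator replicate 4 was the highest of the mutator libraries. The group mean was 168 ± 27.6 summed FPKM in mutator samples and 467 ± 5.86 in wild-type samples (SD, n = 4 and n = 3), so the mutator sum was 35.9% of the wild-type sum. The chromosome 2 genes had 26.8, 27.4, 29, 29.5 and 23.1 summed FPKM in mutator replicates 1 to 5, against 60.3, 64.8 and 61.6 summed FPKM in wild-type libraries. Here mutator replicate 5 was the lowest, and the groups again did not overlap. The group mean was 27.2 ± 2.9 in mutator samples and 62.2 ± 2.31 in wild-type samples, or 43.7%. In bulk RNA, fewer cells that transcribe these genes and less RNA per cell cannot be told apart.

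**Figure D1:**
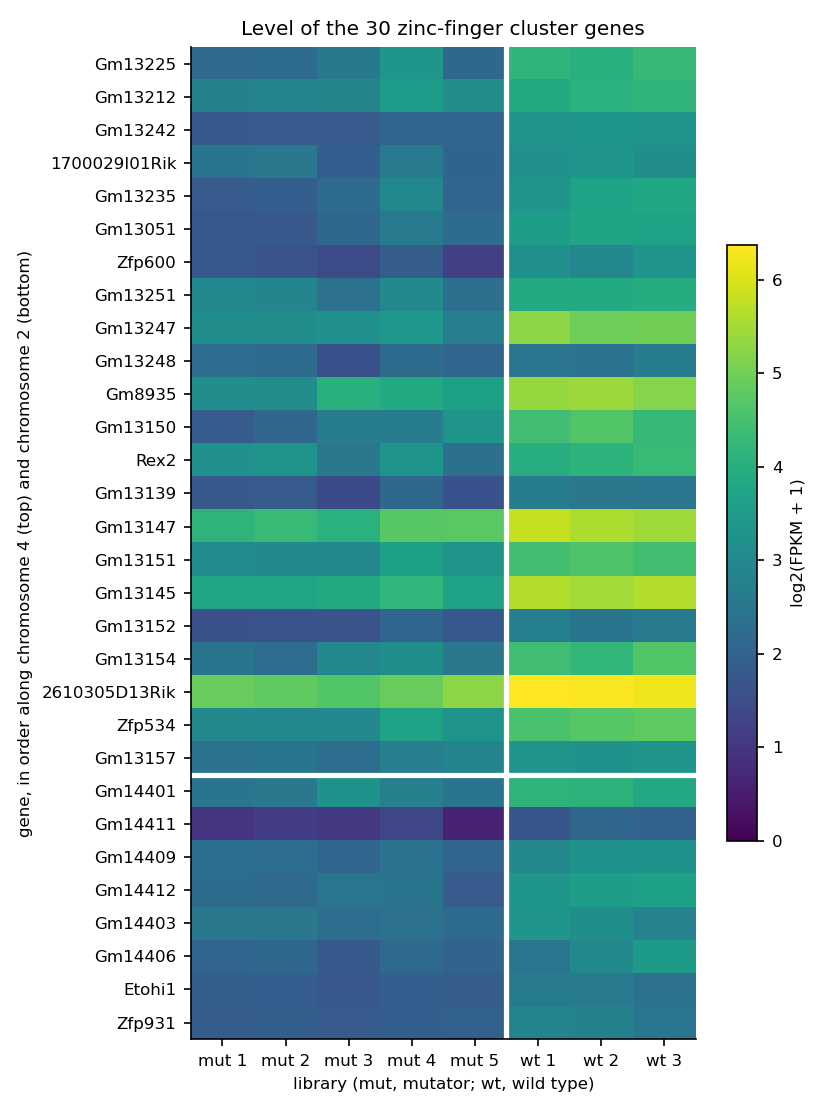
Level of each of the 30 genes, as log2(FPKM + 1) on the colour scale, in the 5 mutator libraries (left) and the 3 wild-type libraries (right), with genes in order along chromosome 4 (top) and chromosome 2 (bottom). Every row is lower in each mutator library than in each wild-type library, and the highest row is 2610305D13Rik, at 24.1 to 37.5 FPKM in mutator and 73.7 to 81.5 FPKM in wild-type libraries.

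All 30 genes passed the filter of a mean of at least 1 FPKM. On chromosome 4, 21 of the 22 had a limma adjusted p under 0.05 and were lower in mutator cells, a call that 4.54% of the 11949 genes tested received in that direction. On chromosome 2 all 8 received it. These calls rest on the contrast that chose the genes, so nothing is read from them. The median log2 change was -1.34 on chromosome 4 (range -1.95 to -0.49) and -0.93 on chromosome 2 (range -1.28 to -0.70), beside -0.03 over all genes tested. In each of the 30 genes the 5 mutator values lay below the 3 wild-type values, as they did in 15.9% of all genes tested. The calls were lost with fewer samples: without any 1 wild-type replicate, or without the pair of mutator replicates 1 and 2, 0 of 22 and 0 of 8 were called. In these settings only 2 to 5 of all 11949 genes were called, so the loss is not particular to these genes. Without mutator replicates 4, 3 or 5 the chromosome 2 calls were 2, 5 and 5. Without any 1 wild-type replicate the medians were -1.37 to -1.31 and -1.03 to -0.87. Rescaling to TPM left 4 of 22 and 0 of 8 called, at medians of -0.86 and -0.51, and moved the median over all genes to 0.37. In that setting only 21 of all 11949 genes were called lower and 1092 higher. Relative to all genes the block medians were -1.23 and -0.88 under TPM, against -1.31 and -0.9 in the main fit.

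**Figure D2:**
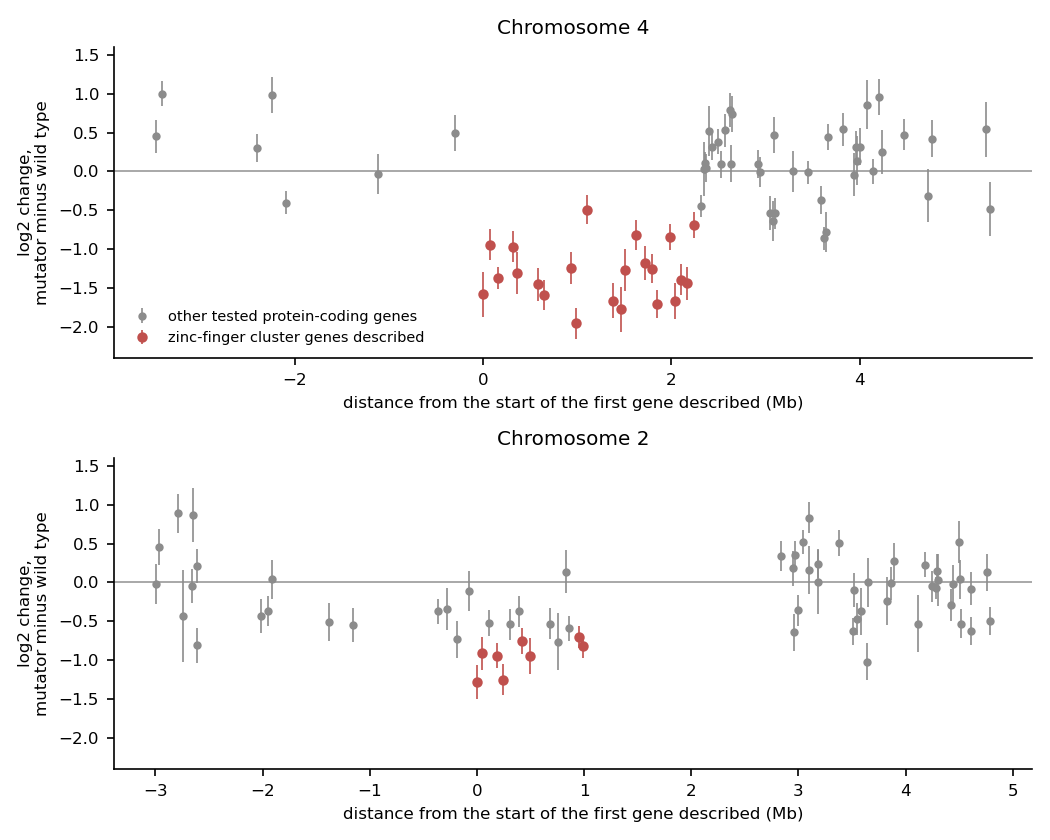
Log2 change (mutator minus wild type, with its standard error) of each gene against its distance in Mb from the first gene described, for chromosome 4 and chromosome 2, with the 30 zinc-finger genes in colour and other tested protein-coding genes in grey. The chromosome 4 genes lie between -1.95 and -0.49, while the genes in the 3 Mb on either side have a median of 0.20.

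The most abundant gene of the chromosome 4 block was 2610305D13Rik (ENSMUSG00000066000, 147611937 to 147642513, minus strand). Under its synonym Ssm1b it is known as a strain-specific modifier that directs DNA methylation of a transgene in mouse embryos. It had 28.4, 27.2, 24.1, 28.7 and 37.5 FPKM in mutator replicates 1 to 5, against 81.5, 79.2 and 73.7 FPKM in wild-type libraries. Mutator replicate 5 was the highest mutator library and still lay below all wild-type libraries. The means were 29.5 ± 5.7 FPKM in mutator and 78.2 ± 4.01 FPKM in wild-type samples (SD, n = 4 and n = 3), and the log2 change was -1.39 (standard error 0.20). Of the 50-base windows of its transcripts, 72.9% occur in no other annotated gene, and 18.9% are shared with Zfp600.

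Next by level was Gm13147, a transcribed pseudogene between 147230284 and 147259338. It had 16.7, 18.6, 15.7, 25.4 and 25.5 FPKM in mutator libraries, against 54.7, 46.7 and 42.9 FPKM in wild-type libraries. Both mutator replicates 4 and 5 were higher than the other mutator libraries, and the groups did not overlap. Its log2 change was -1.18 (standard error 0.22). Gm13145 (Zfp978), whose longest annotated protein holds 3 matches to the finger pattern, had 12.5, 12.5, 13.7, 17.1 and 12 FPKM in mutator libraries, against 48.2, 44.1 and 48.6 FPKM in wild-type libraries. The mutator values were close to each other except for the higher replicate 4, and the change was -1.70 (standard error 0.18).

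Gm13247 (Zfp981, 146502027 to 146539395) had the lowest log2 change of the 30 genes. It measured 7.66, 7.82, 8.39, 9.56 and 5.59 FPKM in mutator libraries, against 37.4, 30.3 and 30.6 FPKM in wild-type libraries. Its mean was 7.82 ± 1.67 FPKM in mutator and 32.8 ± 4.02 FPKM in wild-type samples, a 4.19-fold higher level in wild type, and the log2 change was -1.95 (standard error 0.20). Even the highest mutator library held less of it than any wild-type library, and 60% of its windows are its own. Gm13150 (Zfp989) came next, at 2.6, 3.26, 5.46, 5.46 and 8.75 FPKM in mutator libraries, against 20.4, 23.7 and 18.1 FPKM in wild-type libraries. Its mutator libraries were spread more widely, with replicates 1 and 2 lowest and replicate 5 highest, and the log2 change was -1.77 (standard error 0.29).

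The gene deposited as Gm8935 had 7.76, 7.74, 15.4, 13.8 and 11.3 FPKM in mutator libraries, against 40, 41.8 and 36.3 FPKM in wild-type libraries. Mutator replicates 1 and 2 were again the lowest, and the change was -1.66 (standard error 0.23). Its annotated protein holds 0 matches to the finger pattern. Zfp534, which holds 15, had 6.84, 6.82, 6.93, 11.8 and 8.74 FPKM in mutator libraries, against 22.2, 24.9 and 26.5 FPKM in wild-type libraries, a change of -1.44 (standard error 0.21). Its replicates 1, 2 and 3 were alike and replicate 4 was the highest mutator library.

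The smallest differences of the block were those of Gm13248 and Gm13157. Gm13248 (Zfp993) had 3.9, 3.65, 2.05, 3.73 and 3.22 FPKM in mutator libraries, against 4.66, 4.38 and 5.35 FPKM in wild-type libraries. The groups were separated by less than the range of the mutator values. Its log2 change was -0.49 (standard error 0.19), it was the 1 gene of the 30 that was not called, and only 13.2% of its windows occur in no other gene. Gm13157 (Zfp984), at the distal end, had 4.39, 4.56, 3.94, 5.65 and 6.28 FPKM in mutator libraries, against 8.79, 8.45 and 8.78 FPKM in wild-type libraries. The wild-type values nearly coincide and lie above all mutator values, and the change was -0.69 (standard error 0.17).

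The other 13 genes of the block had wild-type means of 4.9 to 21.7 FPKM. Their log2 changes ranged from -1.67 for Gm13154 to -0.82 for Gm13139. Zfp600, with 17 matches to the finger pattern, averaged 2.0 ± 0.591 FPKM in mutator and 7.93 ± 1.06 FPKM in wild-type samples. Rex2 averaged 6.57 ± 2.51 FPKM in mutator and 16.5 ± 1.92 FPKM in wild-type samples. Gm13212, with the most finger matches (20), averaged 7.67 ± 1.97 FPKM in mutator and 15.3 ± 1.63 FPKM in wild-type samples. Over the 20 protein-coding genes the number of finger matches ran from 0 to 20, with a median of 11.

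On chromosome 2 the most abundant gene was Gm14401 (177074320 to 177087347, plus strand), which also had the lowest log2 change of that block. It had 4.6, 4.88, 8.72, 5.79 and 4.53 FPKM in mutator libraries, against 16.7, 16.3 and 13.4 FPKM in wild-type libraries. Mutator replicate 3 stood above the other mutator libraries and below all wild-type libraries. The log2 change was -1.28 (standard error 0.22). Gm14412, with 15 finger matches, had 3.74, 3.61, 4.67, 4.6 and 2.53 FPKM in mutator libraries, against 9.31, 10.6 and 11.4 FPKM in wild-type libraries, a change of -1.25 (standard error 0.20). Mutator replicate 5 was its lowest library.

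Gm14403 had 4.82, 4.79, 3.92, 4.2 and 3.69 FPKM in mutator libraries, against 8.99, 7.99 and 6.12 FPKM in wild-type libraries, a change of -0.75 (standard error 0.17). Gm14409 had 3.99, 3.93, 3.23, 4.36 and 3.21 FPKM in mutator libraries, against 6.97, 8.5 and 8.56 FPKM in wild-type libraries, a change of -0.94 (standard error 0.16). In both genes mutator replicates 3 and 5 were below mutator replicates 1, 2 and 4. Gm14406 had 3.2, 3.47, 2.47, 3.55 and 3.06 FPKM in mutator libraries, against 4.64, 6.94 and 10 FPKM in wild-type libraries. Here the wild-type libraries were spread widely, and 6.72% of its windows occur in no other gene: 92.4% are shared with Gm14444.

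Zfp931 (178067695 to 178078476, minus strand) had 2.7, 2.81, 2.54, 2.75 and 2.94 FPKM in mutator libraries, against 6.33, 5.91 and 4.69 FPKM in wild-type libraries, a change of -0.82 (standard error 0.15). Its neighbour Etohi1 had 2.8, 2.71, 2.34, 2.74 and 2.65 FPKM in mutator libraries, against 5.14, 5.22 and 4.28 FPKM in wild-type libraries, a change of -0.70 (standard error 0.14). Both had nearly equal values in the mutator libraries, with wild-type replicate 3 the lowest of the wild-type libraries. The pseudogene Gm14411 averaged 1.07 ± 0.416 FPKM in mutator and 2.87 ± 0.533 FPKM in wild-type samples, the lowest level of the 30 genes.

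Spread among libraries was compared by SD. The median SD of log2(FPKM + 1) was 0.32 in mutator and 0.12 in wild-type samples for the chromosome 4 genes, and 0.17 in mutator and 0.18 in wild-type samples for the chromosome 2 genes. Over all genes tested it was 0.30 in mutator and 0.21 in wild-type samples. Of the 22 chromosome 4 genes, 15 were highest in mutator replicate 4 and 5 in mutator replicate 5 among the mutator libraries. The lowest mutator library was replicate 3 for 7 genes, replicates 1 and 5 for 6 each, replicate 2 for 3 and replicate 4 for 0. The mean log2(FPKM + 1) of the chromosome 4 genes exceeded that of the chromosome 2 genes by 0.59, 0.58, 0.58, 0.95 and 0.86 in mutator replicates 1 to 5, against 1.15, 1.01 and 1.12 in wild-type libraries. As a ratio of summed FPKM the groups overlapped: chromosome 4 over chromosome 2 was 5.46, 5.4, 5.09, 6.97 and 7.38 in mutator libraries, against 7.85, 7.16 and 7.53 in wild-type libraries.

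Within the chromosome 4 block the order of the mutator libraries differed between genes, as was noticed after the values were seen. In 6 genes, 1700029I01Rik, Zfp600, Gm13251, Gm13248, Rex2 and Gm13139, mutator replicates 3 and 5 were both below replicates 1, 2 and 4. Among all genes tested with values in every library, 4.96% were ordered so. Rex2 had 8.31, 8.82, 4.77, 8.87 and 4.06 FPKM in mutator replicates 1 to 5, against 14.7, 16.2 and 18.5 FPKM in wild-type libraries. Its mutator replicates 3 and 5 were far below the other mutator libraries, and all 5 were below wild type. The opposite order, with replicates 3 and 5 both above replicates 1, 2 and 4, was seen in 1 of the 22 genes and in 23% of all genes. Replicate 4 was the highest mutator library in 15 of the 22, which leaves little room for that order. Set beside replicates 1 and 2 alone, replicates 3 and 5 were both above in 8 of the 22 genes (35.8% of all genes). They were both below in the same 6 genes (16% of all genes). For each of these 6 genes, the gene with which it shares the most 50-base windows is another of the 6: Zfp600 shares 70.9% of its windows with Rex2, and 1700029I01Rik shares 82.8% with Gm13139. Reads shared between such copies would tie their values together, so these 6 are not 6 independent observations. On chromosome 2, 4 of the 8 genes (Gm14409, Gm14403, Gm14406 and Etohi1) also had replicates 3 and 5 below replicates 1, 2 and 4.

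The same split is seen in Y-linked transcripts. The summed FPKM of Ddx3y, Eif2s3y, Kdm5d and Uty was 6.1, 6.6, 90.6, 1.65 and 76.7 in mutator replicates 1 to 5, against 143, 68.6 and 83.6 in wild-type libraries. Mutator replicates 3 and 5 were in the wild-type range and replicates 1, 2 and 4 far below it, and the part of this split in the values was not tested. The chromosome 4 genes had 147.7 and 170.9 summed FPKM in mutator replicates 3 and 5, and 146.3, 147.9 and 205.8 in replicates 1, 2 and 4. With replicates 3 and 5 as the only mutator samples the median log2 change was -1.44 on chromosome 4 and -1.08 on chromosome 2, with 0 genes called in either block, and 4 of 11949 genes were called overall. The sign of these medians was fixed, since in each gene every mutator library lay below every wild-type library. This fit therefore does not test the part of the split.

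Because the genes are near copies, the share of sequence that is unique to a gene limits how well FPKM separates them. Over GENCODE M21 transcripts, a median of 32.0% of the 50-base windows of a chromosome 4 gene and 52.9% of those of a chromosome 2 gene occur in no other gene. With 100-base windows the medians were 58.6% and 85.4%. The 6 genes with at least 70% unique windows (2610305D13Rik, Gm13152, Gm13154, Gm13225, Gm14412 and Zfp931) had a median log2 change of -1.32 and a range of -1.67 to -0.82. The 16 genes between 20% and 70% had a median of -1.24, and the 8 genes under 20% had a median of -1.12, with a range of -1.59 to -0.49. The read length and the handling of shared reads are not known, so the part of shared reads in the values was not tested.

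**Figure D3:**
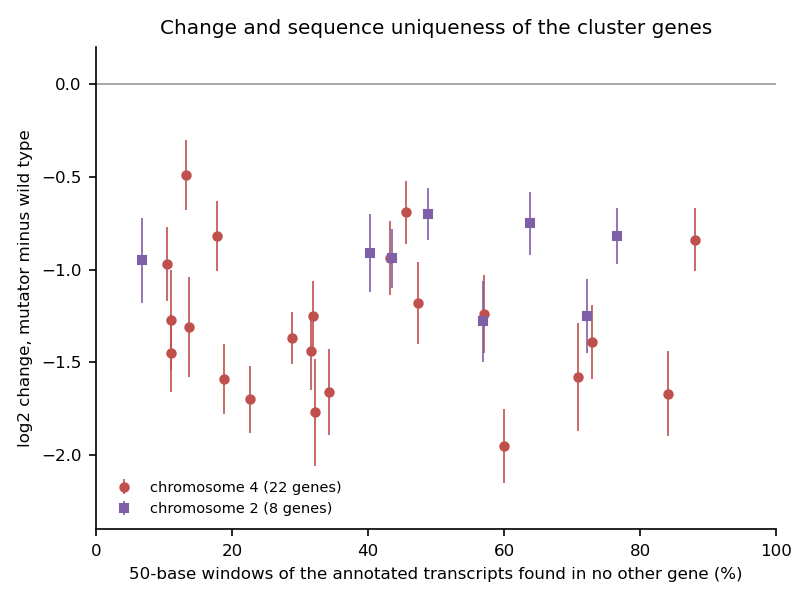
Log2 change (mutator minus wild type, bars show the standard error) of each gene against the percentage of its 50-base transcript windows found in no other annotated gene, with circles for the 22 chromosome 4 genes and squares for the 8 chromosome 2 genes. Points lie below 0 over the whole axis, and the 6 genes at 70% or more run from -1.67 to -0.82.

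Genes near the 30 were compared by position. In the 3 Mb that hold the chromosome 4 genes, 7 other protein-coding genes were tested, all outside the span from Gm13225 to Gm13157. Of these, 0 were called (1 at an unadjusted limma p under 0.05), with a median log2 change of 0.11. The lowest was the zinc-finger gene Zfp933, with 1.94 ± 0.246 FPKM in mutator and 2.97 ± 0.199 FPKM in wild-type samples and a log2 change of -0.44 (limma adjusted p = 0.0919). In the 3 Mb on either side, 38 genes were tested, 3 rose (Kazn, Pdpn and Tmem201), 1 fell (Apitd1) and the median was 0.20, beside 2.95% of all genes called higher and 4.54% called lower. Under TPM 6 were higher and 0 lower, at a median of 0.60, beside 1092 higher and 21 lower of all 11949 genes. With median-of-ratios size factors 8 were higher and 1 lower, beside 1067 and 1028 of all genes. Relative to all genes the median was 0.22 in the main fit and 0.23 under either scaling. In the 3 Mb that hold the chromosome 2 genes, 9 other genes were tested. Of these, 0 were called (4 at an unadjusted limma p under 0.05), with a median log2 change of -0.52. Unlike on chromosome 4, all but Gm14419 and Taf4a lie within the span of the genes described, from Gm14401 to Zfp931. Among them, Gm14420 is now named Zfp970 and C330013J21Rik Zfp972, so this set is not one of neighbours outside the block. In the flanks of the chromosome 2 interval, 1 of 50 genes rose (Lama5), 1 fell (2310003C23Rik) and the median was -0.05. The direction of the calls turned with the scaling, with 5 higher, 0 lower and a median of 0.30 under TPM. With median-of-ratios size factors 4 were higher and 5 lower. Relative to all genes the median was -0.02 in the main fit, -0.07 under TPM and -0.01 with size factors.

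The 24 other genes whose promoters hold the 40-base chromosome 2 run are a set found after the values were seen. Only 8 of them passed the filter, and 0 were called in limma (5 at an unadjusted p under 0.05). All 8 are also counted above, among the genes of the chromosome 2 interval or its flanks, so they are not a separate set. In 4 of them the mutator libraries all lay below the wild-type libraries, as in 15.9% of all genes tested. All 8 had a log2 change below 0 (52.4% of all genes), between -0.76 and -0.34 with a median of -0.53. These values are smaller in size than those of most of the 8 genes described, which were themselves picked for low values in mutator cells, and the difference was not tested.

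The wider family was described by the genes with a Zfp number outside the 30. Of 250 tested, 21 fell and 0 rose in limma, beside 4.54% of all genes called lower, and the median was -0.21. Rescaling to TPM turned the direction, with 8 higher, 1 lower and a median of 0.17, or -0.20 relative to all genes, which moved to 0.37. That setting called 1092 of all 11949 genes higher and 21 lower. Median-of-ratios size factors gave 7 higher and 32 lower, beside 1067 and 1028 of all genes. With the pair of mutator replicates 1 and 2 or any 1 wild-type replicate left out, 0 were called, and 5 were called without mutator replicate 4. Zfp936 fell to 5.19 ± 0.512 FPKM in mutator samples, against 15.5 ± 0.459 FPKM in wild-type samples, a log2 change of -1.41 (limma adjusted p = 0.0156). Zfp809, whose protein silences murine leukaemia viruses in embryonic cells, had 3.51, 3.58, 4.8, 5.23 and 5.32 FPKM in mutator libraries, against 7.59, 8.5 and 8.74 FPKM in wild-type libraries. The groups did not overlap, and it fell by 0.71 on the log2 scale (limma adjusted p = 0.0424).

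A list of the silencing machinery through which KRAB proteins act also held some zinc-finger genes, among them Zfp57, Zfp809 and Zfp42. Of its 53 tested genes, 5 fell, 1 rose and 47 did not pass, beside 7.49% of all genes called in either direction. Zfp809 is 1 of the 5 that fell and is also counted among the other Zfp genes above. The median was -0.28, which became 0.20 under TPM (-0.17 relative to all genes), where the 1 gene called was Mta1. Dnmt3a, a de novo DNA methyltransferase, fell to 9.11 ± 5.88 FPKM in mutator samples, against 39.2 ± 13.4 FPKM in wild-type samples (log2 change -2.13, limma adjusted p = 0.0374). Hells, a chromatin remodeller needed for DNA methylation, fell to 51.2 ± 11.6 FPKM in mutator samples, against 103 ± 6.72 FPKM in wild-type samples (adjusted p = 0.0412). Smarcad1, a remodeller that binds TRIM28, fell to 13.6 ± 3.41 FPKM in mutator samples, against 25.6 ± 1.72 FPKM in wild-type samples (adjusted p = 0.0484). Sumo2, for a modifier that TRIM28 function relies on, fell by 1.05 on the log2 scale (adjusted p = 0.0475), and Zfp809 is given above. Mta1, of the NuRD complex, rose to 11.9 ± 2.16 FPKM in mutator samples, against 5.11 ± 0.927 FPKM in wild-type samples (adjusted p = 0.0293). The core genes were not called: Trim28 averaged 86 ± 30.8 FPKM in mutator and 135 ± 25.7 FPKM in wild-type samples (adjusted p = 0.173), and Setdb1 averaged 16.3 ± 2.49 FPKM in mutator and 20 ± 2.61 FPKM in wild-type samples (adjusted p = 0.314). None of the list was called without any 1 wild-type replicate, without the pair of mutator replicates 1 and 2 or without mutator replicate 4 (0 of 53 each), and 2 were without mutator replicate 5.

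Marker lists were summed in each library. Pluripotency markers summed to 657, 666, 738, 834 and 882 FPKM in mutator libraries, against 1320, 1060 and 965 FPKM in wild-type libraries, so markers of the labelled cell type were present in all libraries, with a lower sum in each mutator library. Of the 14 genes, 1 rose (Tbx3) and 0 fell. Their median log2 change was -0.05, with 8 below 0. In 2 of them, Pou5f1 and Tdgf1, all mutator libraries lay below all wild-type libraries, and in 1 they lay above. As the mean log2(FPKM + 1) of the list the groups overlapped, at 4.77 to 5.28 in mutator and 4.98 to 5.33 in wild-type libraries. Feeder fibroblast markers, 20 genes, summed to 547, 548, 513, 253 and 392 FPKM in mutator libraries, against 187, 208 and 233 FPKM in wild-type libraries, and 2 of 19 tested rose (Cyr61 and Fn1), beside 2.95% of all genes called higher. As the mean log2(FPKM + 1) of this list the groups met, with mutator replicate 4 and wild-type replicate 3 both at 2.53. In 5 of the 19 all mutator libraries lay above all wild-type libraries, as in 11.8% of all genes tested. Primitive endoderm markers, 16 genes, summed to 169, 170, 171, 105 and 482 FPKM in mutator libraries, against 90, 84.4 and 85.4 FPKM in wild-type libraries, with 0 of 9 tested called (6 at an unadjusted p under 0.05). Under TPM 6 feeder and 3 endoderm genes were called higher, a call that 1092 of all 11949 genes received in that setting. Relative to all genes the feeder median was 0.71 in the main fit and 0.72 under TPM. The endoderm median was 1.12 and 1.17. Epiblast markers, 8 genes, summed to 35.5 to 119 FPKM in mutator libraries, against 109 to 152 FPKM in wild-type libraries, with Dnmt3a lower and the groups overlapping. Trophoblast markers, 8 genes, summed to 29.2 to 110 FPKM in mutator libraries, against 20.7 to 48.4 FPKM in wild-type libraries, also overlapping, with 0 of 4 tested called (0 at an unadjusted p under 0.05). No gene of these lists was at 0 in every library (0 in each list). The mutator library with the lowest feeder and endoderm sums, replicate 4, had the highest chromosome 4 sum, 205.8 FPKM, still below every wild-type sum, and the part of these markers in the results was not tested.

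**Figure D4:**
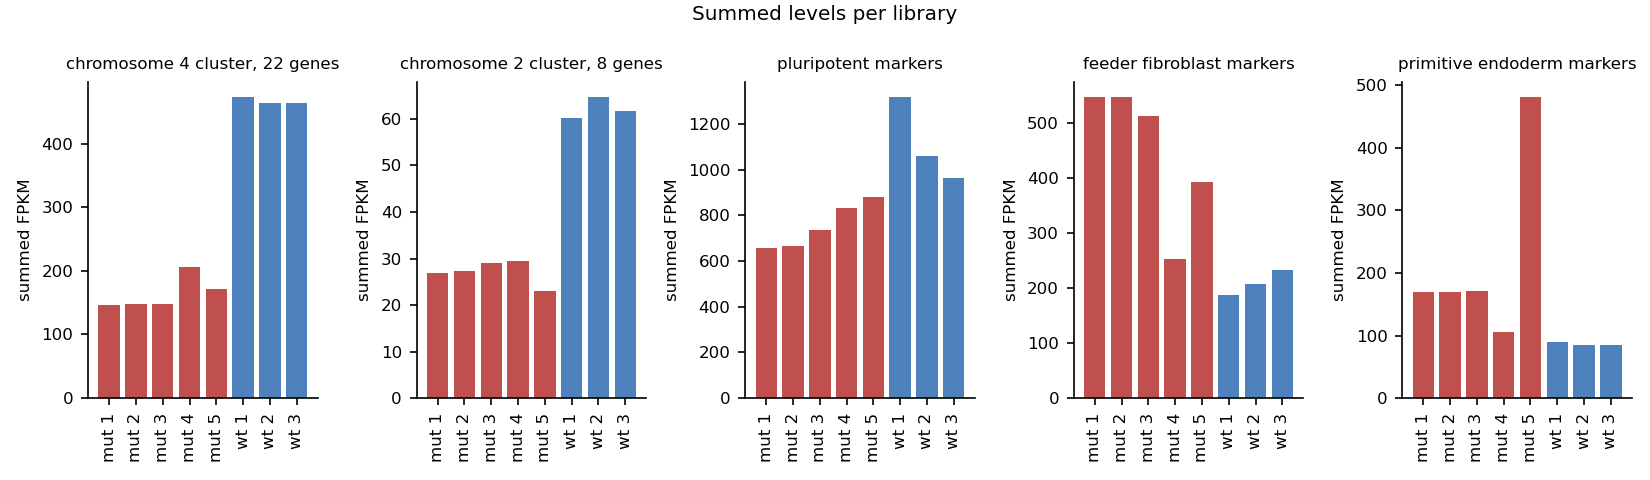
Summed FPKM in each library, mutator to the left of wild type, of the 22 chromosome 4 genes, the 8 chromosome 2 genes and the pluripotent, feeder fibroblast and primitive endoderm markers. The chromosome 4 sum is 146.3 to 205.8 FPKM in mutator and 463.4 to 474 FPKM in wild-type libraries, and the feeder marker sum is 253 to 548 FPKM in mutator and 187 to 233 FPKM in wild-type libraries.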

How the data were processed

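RNA of 8 mouse iPS cell libraries was measured, 5 mutator and 3 wild type, grouped by the sample titles. The authors deposited FPKM per Ensembl gene ID, 1 column per library. STAR and Cufflinks are named in the submitters' processing notes, without versions. Not given in the sources used here are the genome build, annotation, strandedness, read length and treatment of reads with several matches, and the last affects near-identical genes most. The table held 37305 gene rows with 34369 symbols. Rows of the 265 symbols on more than 1 row were summed, and 31 missing cells in 23 rows stayed missing. No count test was applied, since the values are not counts.

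The limma package, version 3.58.1 under R 4.3.3, was run on log2(FPKM + 1) of genes averaging 1 FPKM or more, using lmFit and eBayes with a trend, adjusted by Benjamini-Hochberg over 11949 genes with a threshold of 0.05. Mutator replicates 1 and 2 were averaged as 1 sample, and the fit was tested on simulated data. Equal replicate numbers did not pair samples across genotypes: deviations from the group means correlated at 0.0127, -0.0117 and 0.0514. Positions came from GENCODE M21 (GRCm38) by gene ID, for 35447 of the IDs, and so did the shares of unique transcript windows, over both strands of all annotated transcripts. Promoters came from the RefSeq table (GRCm38.p6), which held 16 of the 30 genes. Matches to the finger pattern, paired cysteines and paired histidines at 1 fixed spacing, were counted in translated GENCODE coding sequences. The rest used Python 3.11.15, pandas 2.3.3, numpy 2.4.6, Biopython 1.88 and matplotlib 3.10.9.

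The 30 genes, the lists and the rule for naming genes were chosen with earlier results of these data known. Values per library are given for the 6 genes of each block with the highest mean, the 2 with the lowest and the 2 with the highest log2 change, and for any gene whose groups overlap (0 did). Called genes of the silencing list, the neighbours and the markers are named, and of the 21 called other Zfp genes Zfp809 and Zfp936. Rex2 per library, Zfp600, Gm13212, Gm14411, Trim28, Setdb1, Zfp933, Zfp936 and the Y-linked genes were named after their values were seen. Alternatives covered the pseudocount, the filter, rescaling to TPM, median-of-ratios size factors, the trend, all 8 libraries as separate samples, the replicate block and libraries left out.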

Additional observations from a re-analysis of the deposited data

How the results depend on the processing

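Under the 20 alternatives run, the 592 log2 changes of the 30 genes were all below 0, between -2.22 and -0.09, and 46 of them moved by 1 SD or more. In each gene every mutator library lay below every wild-type library. Only rescaling to TPM or by size factors could therefore have turned a sign, and nothing is read from the common sign. Counts of calls moved. The count over all genes, 895, became 2203 with all 8 libraries as separate samples, 2095 with median-of-ratios size factors, 43 with no filter, 16 without mutator replicates 1, 2 and 3, 4 without mutator replicates 1, 2 and 4 (added after seeing the data), 5 without the pair of mutator replicates 1 and 2, and 2 to 1096 when single replicates were left out. Chromosome 4 calls, 21, became 4 under TPM, 3 with no filter, 0 without mutator replicates 1, 2 and 3, 0 without mutator replicates 1, 2 and 4, 0 without the pair, and 0 to 20 with single replicates left out. Chromosome 2 calls, 8, became 0 under TPM, 4 at a mean of at least 5 FPKM, 0 with no filter, 0 without either trio, 0 without the pair, and 0 to 8 with single replicates left out. Called genes of the silencing list, 6, became 1 under TPM, 12 with separate libraries, 11 with median-of-ratios size factors, 0 with no filter, 0 without either trio or the pair, and 0 to 6 with single replicates left out. Calls among other Zfp genes, 21, became 9 under TPM (8 higher and 1 lower), 57 with separate libraries, 10 at a mean of at least 5 FPKM, 39 with median-of-ratios size factors, 4 with no filter, 0 without either trio or the pair, and 0 to 26 with single replicates left out. Non-member genes of the intervals and genes with the chromosome 2 run, 0 called each, had 2 each with separate libraries.

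With the replicate block, which pairs same-numbered samples, 1 gene was called over all genes, 0 in the chromosome 4 block, 0 in the chromosome 2 block, 0 of the silencing list and 0 of the other Zfp genes. The difference of the block medians, -0.41, was -0.61 there. The replicate numbers name samples and do not pair them. At a mean of at least 5 FPKM the difference was -0.28, and with a pseudocount of 0.1 it was -0.34. All other alternatives lay between -0.61 and -0.28. The median of the chromosome 4 genes, -1.34, was -0.86 under TPM, where the median over all genes moved to 0.37, so that the chromosome 4 median was -1.23 relative to it. The median of the chromosome 2 genes, -0.93, was -0.51 under TPM (-0.88 relative to all genes), -1.1 at a mean of at least 5 FPKM, -1.12 and -1.04 with pseudocounts of 0.1 and 0.5, and -1.08 without mutator replicates 1, 2 and 4. TPM divides each library by its FPKM sum, which ran from 753985 to 1780534 over the libraries. It gave 1092 higher and 21 lower genes. Some settings hold fewer samples or more genes by construction, and for the others the cause was not tested. The depth is not in the table, which limits what can be said of genes near 1 FPKM, such as Gm14411.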

Other observations

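Genes outside the blocks whose values over the 8 libraries were most like those of a block are given by Pearson's r with the mean log2(FPKM + 1) of its genes. These correlations are dominated by the step between the groups, carry no p, and say nothing of shared function. Beside the chromosome 4 genes they were Gm13690 (r = 0.995), the zinc-finger gene Zfp26 (0.992), Gm9800 (0.986), Nefh, for a neurofilament subunit (0.985), and Smpdl3b, for a phosphodiesterase (0.983). Beside the chromosome 2 genes they were the zinc-finger gene Zfp936 on chromosome 7 (0.993), AC225448.1 (0.982), the histocompatibility gene H2-M5 (0.98), the zinc-finger gene Zfp74 (0.978) and D130040H23Rik (0.975). Their log2 changes ran from -1.31 for Nefh to -0.63 for Zfp26 in the chromosome 4 set, and from -1.41 for Zfp936 to -0.46 for Zfp74 in the chromosome 2 set.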
